A study of Mus musculus with 14 samples.

Results

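Of the 34866 gene identifiers in each deposited table, 7 were the Schlafen genes described here, Slfn1, Slfn2, Slfn3, Slfn4, Slfn5, Slfn8 and Slfn9, chosen by name as members of the mouse gene cluster on chromosome 11. All 7 were found in the tables. They were measured by poly(A) RNA sequencing in 3 mouse tumour lines kept in culture. CT26 is a colorectal carcinoma line of BALB/c mice, E0771 a mammary cancer line of C57BL/6 mice and MC38 a colon adenocarcinoma line of C57BL6 mice. In each line, cells given a RIG-I agonist were set against cells given a control agonist, both at 0.5 ug/ml for 24 h after plating 100000 cells in each well. CT26 had 3 libraries with each agonist, and E0771 and MC38 had 2 with each, 14 in all. The labels give neither the chemical identity of the agonists nor their delivery, and they describe no cells left without an agonist. They do not say that replicates were separate cultures. The p-values below therefore cover only the variation among these samples, and that variation may be technical. Each line is a single established culture with no host around it.

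RIG-I is a cytosolic sensor of viral RNA that, once bound, leads to the transcription of type I interferon genes. Secreted interferon then acts through its receptor on transcription factors, among them STAT2 and IRF9, which bind interferon-stimulated response elements in target promoters. The Schlafen genes are known as targets of this pathway in mouse immune cells, where the founding members were described as brakes on thymocyte growth. All share an amino-terminal core. The short members (Slfn1 and Slfn2) consist of little else, the intermediate members (Slfn3 and Slfn4) carry an added stretch, and the long members (Slfn5, Slfn8 and Slfn9) end in a helicase-like part. Several proteins of the family act on transfer RNA: human SLFN11 cleaves it and restricts virus production, and mouse Slfn2 protects it from cleavage in T cells.

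In the annotation used here (GENCODE M21, build GRCm38), the 7 genes lay within 263806 bases, chr11:82951349-83215154. From the low to the high coordinate they were ordered Slfn5, Slfn9, Slfn8, Slfn2, Slfn1, Slfn4 and Slfn3, with the pseudogene Slfn10-ps between Slfn8 and Slfn2. Slfn8 and Slfn9 lie on the minus strand and the other members on the plus strand. The longest annotated coding regions gave 337 residues for Slfn1, 378 for Slfn2, 640 for Slfn3, 602 for Slfn4, 884 for Slfn5 and 910 for both Slfn8 and Slfn9. RefSeq promoter windows (GRCm38.p6, 250 bases before to 50 after the start) were held for all 7 members, with a second listed start for Slfn8. Each was searched on both strands for the interferon-stimulated response element written as GAAANNGAA, the gamma-activated site TTCNNNGAA and the NF-kB site GGGANTTTC. The response element occurred in 3 of the 7 members, Slfn5, Slfn8 and Slfn9, against 8.56% of all 32851 promoter windows. No window of the 7 members held either of the other motifs, which were found in 8.30% and 1.11% of all windows. A match is a string of letters only, and its absence says nothing about regulation.

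The windows of the 3 long members are shown because they hold the response element, and that of Slfn2 because it had the largest fold change of the tested members in CT26 and E0771 without holding it. All are 5′ to 3′ on the strand of the gene, and capitals mark the matches.
Slfn5, chr11:82951852-82952151, plus strand: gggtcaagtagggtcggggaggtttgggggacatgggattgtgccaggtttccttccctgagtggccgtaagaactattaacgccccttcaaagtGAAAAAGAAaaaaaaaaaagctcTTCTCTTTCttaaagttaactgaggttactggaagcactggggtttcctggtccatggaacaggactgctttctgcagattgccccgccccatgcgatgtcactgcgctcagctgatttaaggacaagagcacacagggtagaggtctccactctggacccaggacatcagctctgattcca
Slfn9, chr11:82991781-82992080, minus strand: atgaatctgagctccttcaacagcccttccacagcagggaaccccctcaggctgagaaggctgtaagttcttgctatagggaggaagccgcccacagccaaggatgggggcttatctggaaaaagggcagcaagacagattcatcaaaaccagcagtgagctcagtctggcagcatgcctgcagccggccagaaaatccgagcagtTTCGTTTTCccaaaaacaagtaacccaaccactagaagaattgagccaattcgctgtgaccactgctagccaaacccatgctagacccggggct
Slfn8, chr11:83020761-83021060, minus strand: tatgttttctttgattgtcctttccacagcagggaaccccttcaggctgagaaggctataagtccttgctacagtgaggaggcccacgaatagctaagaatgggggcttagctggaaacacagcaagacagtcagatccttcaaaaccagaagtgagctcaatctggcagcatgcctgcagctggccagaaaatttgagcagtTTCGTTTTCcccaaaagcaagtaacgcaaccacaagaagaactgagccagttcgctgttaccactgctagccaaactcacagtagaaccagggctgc
Slfn2, chr11:83064862-83065161, plus strand: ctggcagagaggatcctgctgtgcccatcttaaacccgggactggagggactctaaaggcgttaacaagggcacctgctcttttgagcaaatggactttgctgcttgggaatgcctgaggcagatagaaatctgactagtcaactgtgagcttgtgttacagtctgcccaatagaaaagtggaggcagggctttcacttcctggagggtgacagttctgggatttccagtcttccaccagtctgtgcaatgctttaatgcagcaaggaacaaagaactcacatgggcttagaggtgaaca
The matches in Slfn5 began 155 and 132 bases upstream of its start, the second on the reverse strand. Slfn9 and Slfn8 held the same reverse-strand letters, TTCGTTTTC, beginning 44 bases upstream in Slfn9 and 47 bases upstream in Slfn8. Aligned end to end, the Slfn8 and Slfn9 windows were identical at 80.7% of aligned positions, while all other pairs of members lay between 42.3% and 50.3%.

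Kinship between the genes bears on how reads were divided among them. Of the 31-letter words in its annotated transcripts, Slfn8 shared 26.7% with other Schlafen genes or Slfn10-ps, Slfn9 19.8%, Slfn3 15.9%, Slfn4 15.3%, Slfn2 8.14% and Slfn1 1.96%, whereas Slfn5 shared none. The deposited values are estimated counts, in which reads that match several transcripts are divided by a model, so the split between Slfn8 and Slfn9, and between Slfn3 and Slfn4, is less certain than the level of Slfn5. Counted against all annotated genes on either strand, the shared part was 30.9% for Slfn3, 27.3% for Slfn8, 24.55% for Slfn9 and 20.9% for Slfn4. It was 13.35% for Slfn5, 10.8% for Slfn2 and 1.96% for Slfn1. Of the words of Slfn5, its antisense neighbour Slfn5os held 7.99%. The libraries were stranded, but whether strand entered the quantification is not given in the sources used here.

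Total estimated counts per library ran from 32826742 to 40564102 in CT26, from 12413347 to 13399247 in E0771 and from 12347361 to 18964563 in MC38. Levels are given as CPM, counts scaled to the normalised library size within a line, and changes as log2 fold changes, RIG-I agonist over control agonist, from edgeR's quasi-likelihood test fitted to all genes of a line. A gene was called at a Benjamini-Hochberg adjusted p under 0.05. By that rule 2751 genes were higher and 2583 lower in CT26, 180 higher and 3 lower in E0771, and 2338 higher and 2099 lower in MC38. Leukocyte markers were low. Of 11 markers 0 were called in any line, with 3, 2 and 3 of them passing the filter on low counts in CT26, E0771 and MC38, and their summed level was 4.95 to 5.47 CPM with the RIG-I agonist against 3.83 to 4.97 CPM with the control agonist in CT26, 10.5 to 16.9 against 13.1 to 17.0 CPM in E0771 and 5.42 to 6.35 against 7.37 to 7.66 CPM in MC38. The T cell marker Cd3e and the macrophage marker Adgre1 had at most 2 counts in any group. The myeloid markers Lyz2 and Cd68 were higher, most of all in E0771, where Lyz2 averaged 4.92 CPM with the RIG-I agonist against 9.28 CPM with the control agonist, and Cd68 7.86 against 5.18 CPM. Against the carcinoma labels, Epcam was at or near 0 in all lines. Of 6 epithelial markers only Krt8 in E0771 exceeded 100 CPM, averaging 222 CPM with the RIG-I agonist against 250 CPM with the control agonist. Krt18 averaged 16.3 CPM with the RIG-I agonist against 22.7 CPM with the control agonist in CT26. In E0771 and MC38 it had 0 counts in every library, and why was not tested. The mesenchymal gene Vim exceeded 1580 CPM in every library, but other mesenchymal markers varied by line. In E0771, Fn1 averaged 0.231 against 0.199 CPM and Cdh2 0.0366 against 0 CPM, while Sparc averaged 713 against 760 CPM. In MC38, Col1a1 averaged 1.59 against 3.22 CPM, while Fn1 averaged 536 against 833 CPM. The 6 mesenchymal markers were called lower with the RIG-I agonist in CT26, beside 2583 of 13893 genes, and in MC38, beside 2099 of 12387. In E0771, 1 of 4 tested was called lower, beside 3 of 11728 genes. The part of these markers in the Schlafen results was not tested.

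The family as a whole was higher with the RIG-I agonist in all 3 lines, and Slfn2, Slfn8 and Slfn9 were called higher in each of them. In CT26, all 6 members that passed the filter were called higher, beside 19.8% of all genes tested in that line. In E0771, 4 of 6 were called higher, beside 1.53% of genes, and in MC38 6 of 7, beside 18.9%. With replicate number as a block, Slfn3 and Slfn4 were also called in E0771, among far more genes. Slfn1 is in the MC38 set alone, where its controls held 0 counts and it passed the filter through its RIG-I libraries only. Its call and its lack of overlap there are therefore not independent of the filter. The fit of all 14 libraries called all 7 members higher in E0771, including Slfn1 with 0 control counts, beside 949 of 14657 genes called higher. No member was called lower in any line. Over the tested members, CT26 had a median log2 fold change of 2.03, E0771 one of 2.41 and MC38 one of 1.41, while the median over all genes was within 0.01 of 0 in each line. The MC38 median includes Slfn1, at 8.07, and the other medians do not. The libraries of the 2 agonists did not overlap, with every RIG-I library above every control library, for 6 of 6 tested members in CT26 (26.4% of all genes), 6 of 6 in E0771 (20.4%) and 6 of 7 in MC38 (33.4%). In RNA from whole cultures, a change in the share of cells that express a gene and a change in RNA per cell cannot be told apart.

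**Figure D1:**
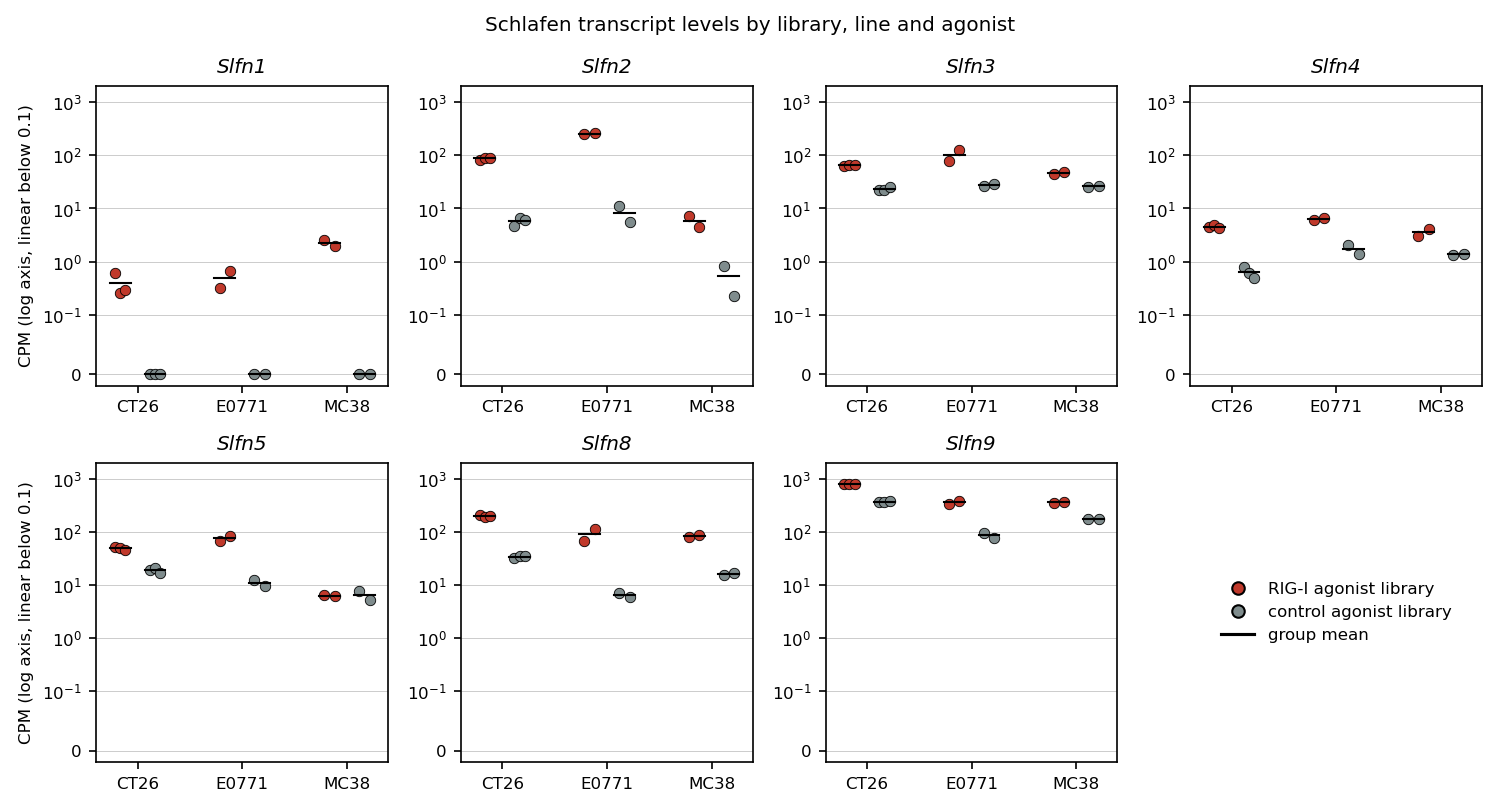
CPM of each Schlafen gene in every library (points, RIG-I agonist left of control agonist within a line) with group means (lines), on an axis that is logarithmic above 0.1 and linear below. Slfn1 was at 0 in all control libraries, and the libraries of the 2 agonists overlapped only for Slfn5 in MC38.

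Among the short members, Slfn1 was detected only in cells given the RIG-I agonist. MC38 had the clearest signal, with 31 and 38 counts in the RIG-I libraries and 0 and 0 in the control libraries. CT26 had 23, 10 and 10 counts with the RIG-I agonist against 0, 0 and 0 with the control agonist, and E0771 had 4 and 9 counts against 0 and 0. No control library in any line held a single count, although a count of 0 over a control group still allows up to 3 counts, or 0.0262 CPM in CT26, 0.120 CPM in E0771 and 0.105 CPM in MC38. The mean of the RIG-I libraries was 14.9-fold the floor of the control group in CT26, 4.07-fold in E0771 and 21.5-fold in MC38. These are lower bounds only if the RIG-I mean is taken as exact. The floors cover counting error of the controls, and that of the RIG-I counts is not included. The gene passed the filter on low counts in MC38 alone, where its adjusted p was 3.72e-07. With no filter its adjusted p was 1.06e-08 in CT26 and 0.264 in E0771, where the fit of all 14 libraries gave 0.0367 and DESeq2 0.689. Slfn1 was described early as a brake on thymocyte growth, and its mean level with the RIG-I agonist was 2.26 ± 0.370 CPM in MC38 (SD, n = 2), 0.488 ± 0.243 CPM in E0771 (n = 2) and 0.391 ± 0.194 CPM in CT26 (n = 3). Both MC38 libraries lay above every RIG-I library of the other lines.

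Slfn2, the short member that guards transfer RNA in mouse T cells, had the largest fold change of the members tested in CT26 and E0771. E0771 held 247 and 260 CPM with the RIG-I agonist, against 11.1 and 5.51 CPM with the control agonist. CT26 held 82.0, 89.9 and 89.1 CPM with the RIG-I agonist, against 4.66, 6.68 and 6.20 CPM with the control agonist. MC38 held far less, 7.16 and 4.47 CPM with the RIG-I agonist against 0.836 and 0.230 CPM with the control agonist, the last resting on 13 and 3 counts. The groups were well apart in each line, and the spread between replicates was widest in MC38. The log2 fold change was 4.93 (SE 0.35, adjusted p = 0.00761) in E0771, or 30.5-fold, and 3.89 (SE 0.11, adjusted p = 5.90e-11) in CT26, or 14.8-fold. In MC38 it was 3.34 (SE 0.41, adjusted p = 3.23e-05), or 10.1-fold. Ranked by fold change among all genes tested, Slfn2 stood at place 83 in CT26, 85 in E0771 and 35 in MC38. Among cells given the RIG-I agonist, MC38 thus had the highest level of Slfn1 and the lowest level of Slfn2.

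The intermediate members are neighbours at the far end of the cluster. Slfn3, studied in T cell and intestinal differentiation, had 63.4, 65.8 and 65.8 CPM in CT26 with the RIG-I agonist, against 21.8, 22.3 and 25.0 CPM with the control agonist. In MC38 it had 45.2 and 49.4 CPM with the RIG-I agonist, against 25.6 and 26.9 CPM with the control agonist. E0771 was less even, with 77.1 and 127 CPM in the RIG-I libraries against 26.4 and 29.3 CPM in the control libraries. The control levels were close to each other in all lines, and no group of RIG-I libraries overlapped its controls. Slfn3 was called higher in CT26, by 1.50 on the log2 scale (SE 0.07, adjusted p = 4.50e-10), and in MC38, by 0.86 (SE 0.07, adjusted p = 6.02e-09). In E0771 the estimate was larger, 1.87 (SE 0.27, 95% interval 1.19 to 2.55), and a fit with replicate number as a block called it. The main fit gave an adjusted p of 0.0529. That value sits at the threshold: the adjusted p was 0.00217 without RIG-I replicate 1, 0.0197 without RIG-I replicate 2 and 1.85e-08 in DESeq2, and ranged up to 0.0821 over the alternatives.

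Slfn4, which marks activated macrophages and other myeloid cells in mice, had a far lower level than Slfn3 per kb of transcript in every group. It had 4.43, 4.95 and 4.30 CPM in CT26 with the RIG-I agonist, against 0.805, 0.621 and 0.495 CPM with the control agonist. In E0771 it had 6.09 and 6.67 CPM with the RIG-I agonist against 2.02 and 1.40 CPM with the control agonist, and in MC38 3.01 and 4.16 CPM against 1.35 and 1.38 CPM. The RIG-I libraries were above the controls in all lines, with the lowest control level in CT26. The log2 fold change was 2.83 (SE 0.20, adjusted p = 7.45e-08) in CT26 and 1.41 (SE 0.29, adjusted p = 0.000534) in MC38, both called. In E0771 it was 1.89 (SE 0.36, 95% interval 0.98 to 2.80) with an adjusted p of 0.109, from 77 and 91 counts against 26 and 17. A fit with replicate number as a block called Slfn4 in E0771. DESeq2 called it there (adjusted p = 0.0259, in a range of 0.000328 to 0.414 over the alternatives).

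Slfn5 is the long member whose human counterpart has been described as a nuclear co-repressor of interferon-driven transcription, and it was the only member not called in MC38. MC38 held 6.51 and 6.10 CPM with the RIG-I agonist, against 7.72 and 5.30 CPM with the control agonist. Here the RIG-I libraries lay inside the range of the controls. E0771 held 67.1 and 83.1 CPM with the RIG-I agonist, against 12.5 and 9.70 CPM with the control agonist, and CT26 held 52.1, 48.7 and 45.8 CPM against 18.8, 20.8 and 17.1 CPM. In these lines the groups were far apart. The log2 fold change was 2.75 (SE 0.21, adjusted p = 0.00761) in E0771 and 1.37 (SE 0.08, adjusted p = 1.15e-08) in CT26, against -0.06 (SE 0.18, adjusted p = 0.818) in MC38. The 95% interval in MC38, -0.45 to 0.32, excludes a change as large as that in either other line. Without control replicate 1 the MC38 estimate turned to 0.25, still uncalled.

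Slfn8 and Slfn9 are paralogues of equal coding length that lie side by side. Slfn9 had 785, 785 and 801 CPM in CT26 with the RIG-I agonist, against 356, 360 and 383 CPM with the control agonist. In E0771 it had 333 and 378 CPM with the RIG-I agonist against 95.3 and 75.4 CPM with the control agonist, and in MC38 349 and 369 CPM against 170.3 and 170.5 CPM. The groups stood apart in each line with little spread, and the log2 fold change was 1.11 (SE 0.06, adjusted p = 7.02e-09) in CT26, 2.06 (SE 0.17, adjusted p = 0.0102) in E0771 and 1.08 (SE 0.04, adjusted p = 1.35e-15) in MC38. Slfn8 had 205, 193 and 199.9 CPM in CT26 with the RIG-I agonist, against 31.5, 34.5 and 35.0 CPM with the control agonist. In E0771 it had 67.2 and 111 CPM with the RIG-I agonist against 7.01 and 5.84 CPM with the control agonist, and in MC38 79.9 and 85.2 CPM against 15.4 and 17.0 CPM. Its log2 fold change was larger than that of Slfn9 in each line, with 95% intervals that did not overlap, at 2.56 (SE 0.06, adjusted p = 4.73e-13) in CT26, 3.79 (SE 0.31, adjusted p = 0.00952) in E0771 and 2.36 (SE 0.07, adjusted p = 1.13e-16) in MC38.

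The count of Slfn8 per count of Slfn9 was 0.261, 0.245 and 0.250 in CT26 with the RIG-I agonist, against 0.0886, 0.0959 and 0.0913 with the control agonist. In E0771 it was 0.202 and 0.293 against 0.0735 and 0.0774, and in MC38 0.229 and 0.231 against 0.0903 and 0.0995. No RIG-I library overlapped a control library in this ratio, and the control values of all lines fell between 0.0735 and 0.0995. Because the pair shares 792 words, part of this ratio could follow from how shared reads were divided, which was not tested. With the counts of both genes summed before the fit, CT26 gave a log2 fold change of 1.31 for the pair, E0771 one of 2.28 and MC38 one of 1.24, each called. Slfn3 summed with Slfn4 gave 1.55 in CT26, 1.87 in E0771 and 0.89 in MC38, each called, with an adjusted p of 0.0454 in E0771.

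**Figure D2:**
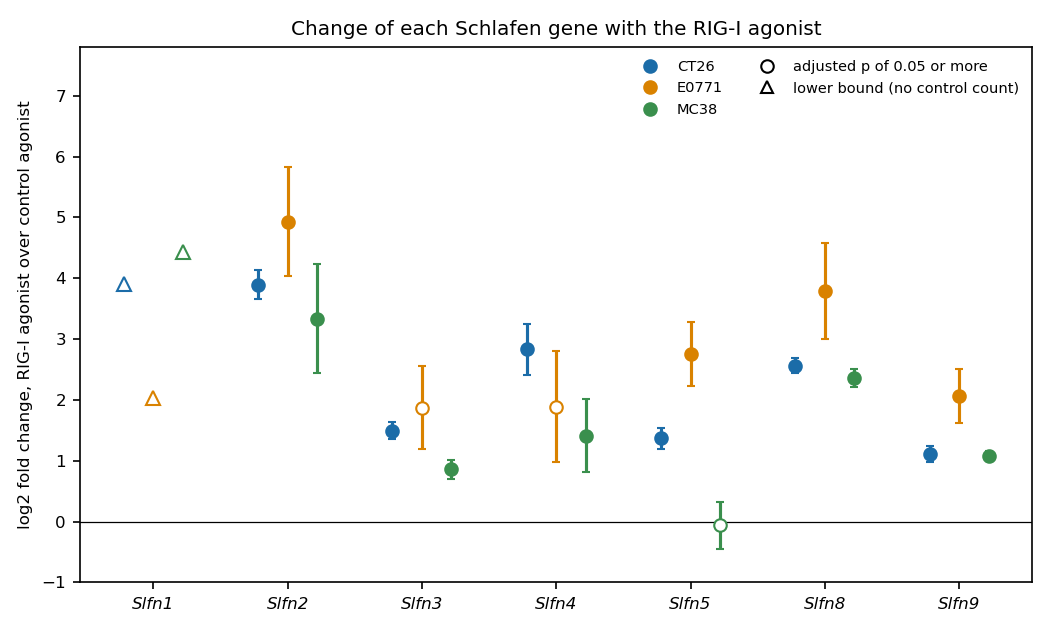
Log2 fold change of each Schlafen gene, RIG-I agonist over control agonist, in CT26, E0771 and MC38 (circles, with 95% intervals; open where the adjusted p was 0.05 or more) and lower bounds for Slfn1 (triangles). The bounds set the RIG-I mean, taken as exact, over the floor of the controls. All circles but that of Slfn5 in MC38, at -0.06, lie well above 0.

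Summed over the 7 members, the level was 1195 ± 9.98 CPM with the RIG-I agonist and 448 ± 17.0 CPM with the control agonist in CT26 (SD, n = 3 each), 2.67-fold. It was 882 ± 119 and 141 ± 19.2 CPM in E0771, 6.27-fold, and 507 ± 19.5 and 221.2 ± 0.0044 CPM in MC38, 2.29-fold (SD, n = 2 each). Divided by the length of the transcript with the longest coding region, so that genes can be compared, the make-up of this sum differed between agonists. In CT26, Slfn9 took 48.7% of the summed CPM per kb with the RIG-I agonist against 70.2% with the control agonist, while Slfn2 took 18.6% against 3.88% and Slfn8 17.6% against 9.28%. In E0771 Slfn2 became the leading transcript per kb, at 50.7% with the RIG-I agonist against 12.9% with the control agonist. Slfn9 held 20.4% against 39.0% there, and Slfn3 16.9% against 37.9%. MC38 changed least, with Slfn9 at 54.8% against 60.7%, Slfn3 at 21.2% against 27.4%, Slfn8 at 18.1% against 8.28% and Slfn2 at 3.10% against 0.660%. Slfn1 stayed at or below 1.22% of the sum in every library. Length was taken from the annotation, so these shares depend on which transcript is used. Per kb of coding region, Slfn3 held 24.4% and Slfn9 51.5% in E0771 with the control agonist. With the RIG-I agonist Slfn2 still led there, at 47.6%.

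**Figure D3:**
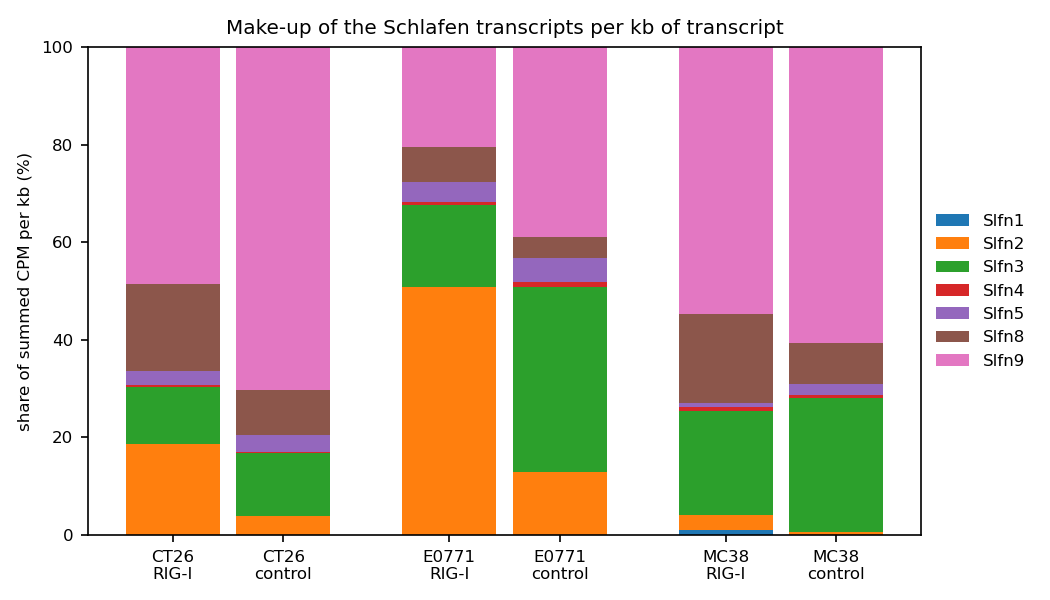
Mean share of each Schlafen gene in the family's summed CPM per kb of transcript, by line, with the RIG-I agonist left of the control agonist. Slfn2 makes up 50.7% of the bar of E0771 cells given the RIG-I agonist and 3.10% of that of MC38 cells given it.

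Whether the lines differed in their response was tested as the difference of log2 fold changes in a single edgeR fit of all 14 libraries. The long members carried the differences that passed. Slfn1 is counted among the 7 members below but could not be called, since no control library held a count of it. Between CT26 and E0771, 3 of the 7 members were called, beside 3.88% of all genes: Slfn5 at -1.42 (SE 0.21, adjusted p = 0.00190), Slfn8 at -1.27 (SE 0.26, adjusted p = 0.0163) and Slfn9 at -0.99 (SE 0.13, adjusted p = 0.000987), each smaller in CT26. Between CT26 and MC38, only Slfn5 was called, beside 3.8% of genes, at 1.38 (SE 0.24, adjusted p = 0.00715), larger in CT26. Between E0771 and MC38, 3 were called, beside 2.11% of genes: Slfn5 at 2.81 (SE 0.27, adjusted p = 6.39e-05), Slfn8 at 1.43 (SE 0.29, adjusted p = 0.0219) and Slfn9 at 0.97 (SE 0.14, adjusted p = 0.00221), all larger in E0771. These comparisons share libraries pairwise and are not independent of each other. The Slfn8 difference between CT26 and E0771 lost its call without E0771 control replicate 2 (adjusted p = 0.0919, the highest over the alternatives, with a lowest of 9.94e-06). The Slfn8 difference between E0771 and MC38 lost its call without that library (adjusted p = 0.129) or without any single MC38 library (adjusted p between 0.0639 and 0.0997), in a range of 1.22e-05 to 0.129 over the alternatives. The Slfn5 difference between CT26 and MC38 lost its call without MC38 control replicate 1 (1.06, adjusted p = 0.0900) or MC38 RIG-I replicate 2 (1.33, adjusted p = 0.0612), the lowest over the alternatives being 6.80e-06. Those of Slfn9, and those of Slfn5 that involve E0771, kept their call in every alternative fit tried.

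For the other members the differences missed the threshold, some of them narrowly, and most intervals were wide. Slfn2 differed by -1.08 between CT26 and E0771 (95% interval -1.82 to -0.33, adjusted p = 0.122), by 0.52 between CT26 and MC38 (-1.13 to 2.17, adjusted p = 0.769) and by 1.59 between E0771 and MC38 (-0.20 to 3.38, adjusted p = 0.464). Slfn3 differed by 1.01 between E0771 and MC38 (0.46 to 1.56, adjusted p = 0.0693) and Slfn4 by 1.38 between CT26 and MC38 (0.59 to 2.17, adjusted p = 0.0552). Some alternative fits called these differences: that of Slfn3 between E0771 and MC38 in 4 of 13 (DESeq2 adjusted p = 0.00804), that of Slfn4 between CT26 and MC38 in 3 of 14 (DESeq2 adjusted p = 0.0321) and that of Slfn2 between CT26 and E0771 in 2 of 15 (DESeq2 adjusted p = 0.0433). Over all their alternatives the adjusted p ran up to 0.252 for Slfn3, 0.209 for Slfn4 and 0.366 for Slfn2. Between CT26 and E0771 the Slfn3 difference was -0.41 (adjusted p = 0.393), called in 1 of 15, and between CT26 and MC38 it was 0.59 (adjusted p = 0.177), also called in 1 of 15. Slfn8 and Slfn9 differed little between CT26 and MC38, by 0.16 (-0.34 to 0.66) and -0.02 (-0.30 to 0.27). For Slfn1 no difference could be estimated, since the controls of all lines were at 0.

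**Figure D4:**
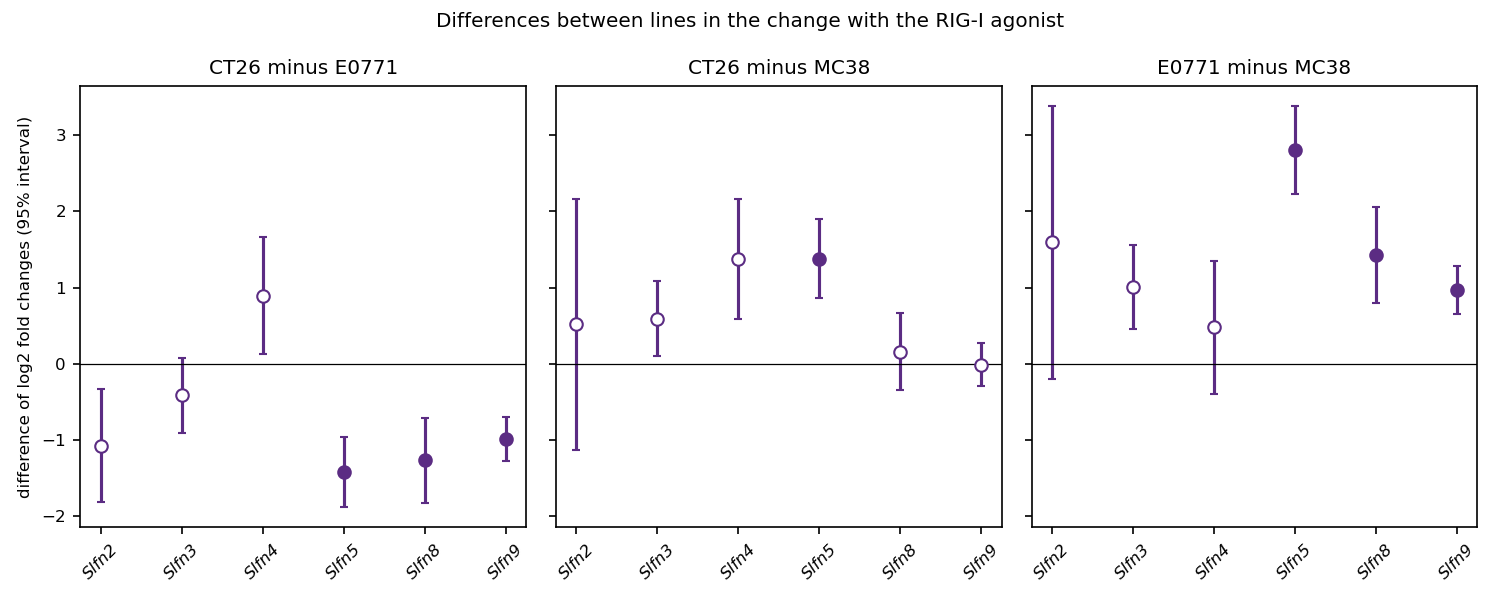
Difference between lines in the log2 fold change of each Schlafen gene with the RIG-I agonist (points, with 95% intervals from the fit of all 14 libraries; filled where the adjusted p was under 0.05). Slfn5 lies off 0 in all 3 panels, at -1.42, 1.38 and 2.81, and Slfn9 in the 2 panels that hold E0771.

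The levels with the control agonist were already unlike between lines, in a fit where most genes differed: 70.3% of genes were called between CT26 and E0771, 73.6% between CT26 and MC38 and 64.1% between E0771 and MC38. The counts of members called were 4, 5 and 4 of 7, where Slfn1 could not be called because no control library held a count of it. By number, the members are not set apart from the background. Slfn9 was higher in CT26 than in E0771 by 2.21 (SE 0.10, adjusted p = 4.50e-10) and than in MC38 by 1.21 (SE 0.10, adjusted p = 1.01e-07) on the log2 scale. Slfn8 followed, at 2.50 (SE 0.21, adjusted p = 2.42e-07) and 1.16 (SE 0.18, adjusted p = 5.86e-05). Slfn2 was higher in CT26 than in MC38 by 3.48 (SE 0.48, adjusted p = 4.41e-05) and higher in E0771 than in MC38 by 3.87 (SE 0.52, adjusted p = 4.56e-05). Slfn4 ran the other way and was lower in CT26, at -1.30 (SE 0.28, adjusted p = 0.000883) against E0771 and -0.99 (SE 0.28, adjusted p = 0.00607) against MC38. Slfn5 was higher in CT26 than in E0771 by 0.88 and higher in E0771 than in MC38 by 0.75, the second losing its call without E0771 control replicate 1 (adjusted p = 0.0542) or MC38 control replicate 2 (adjusted p = 0.0565), in a range of 0.00165 to 0.0565. Slfn3 was the steadiest member, with control differences of -0.16 (95% interval -0.52 to 0.20), -0.09 (-0.44 to 0.27) and 0.08 (-0.33 to 0.48). In the contrasts with CT26, line, strain, table and sequencing depth cannot be told apart, and the CT26 reads are of BALB/c origin while the reference build is that of C57BL/6J. E0771 and MC38 are both of C57BL/6 origin and their library totals overlapped, but line and deposited table cannot be told apart between them.

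With all 14 libraries scaled together, the order of the 6 groups differed from gene to gene. Slfn9 was highest in CT26 with the RIG-I agonist, at 803 CPM, and next in CT26 with the control agonist, at 385 CPM, where every library lay above the RIG-I libraries of MC38 and E0771 (means of 352 and 344 CPM, which overlapped). For Slfn2, E0771 and CT26 with the RIG-I agonist led at 245 and 88.5 CPM, while MC38 with the RIG-I agonist, at 5.71 CPM, overlapped the control groups of E0771 and CT26, at 8.04 and 6.15 CPM. In Slfn5, E0771 with the RIG-I agonist led at 72.6 CPM and CT26 with the RIG-I agonist followed at 49.7 CPM. Both MC38 groups, at 6.19 CPM with the RIG-I agonist and 6.38 CPM with the control agonist, were last and overlapped. Slfn8 was highest in CT26 with the RIG-I agonist, at 203 CPM, ahead of E0771 and MC38 with the RIG-I agonist at 86.1 and 81.0 CPM, which overlapped, and lowest in E0771 with the control agonist at 6.24 CPM. For Slfn3 and Slfn4 the 3 RIG-I groups stood above all control groups, in the order E0771, CT26 and MC38.

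The genes whose pattern over these 6 groups was most like that of a member were sought among 14649 genes outside the family, by the root-mean-square difference of centred log2 CPM. This is a description over 6 group means. Slfn9 was closest to Eif2ak2, which encodes the RNA-activated kinase PKR, at 0.122, and to the proteasome activator gene Psme2 at 0.179. Slfn8 was closest to Sp110, a nuclear body gene, at 0.295 and to Ifit1bl2 at 0.322. Slfn3 was closest to Dnmt3c at 0.123 and Relb, an NF-kB subunit gene, at 0.217, and Slfn4 to Pnp, a purine nucleoside phosphorylase gene, at 0.247 and Dnmt3c at 0.286. Slfn5 was closest to Ly6c2, a surface antigen gene of monocytes, at 0.371 and Serpinb9c at 0.529, and Slfn2 to Ly6a, which encodes the surface antigen Sca-1, at 0.633 and Ly6c1 at 0.800. Slfn1 was closest to Ctss, the cathepsin S gene, at 0.345 and to Gm16464 at 0.423. Its controls held 0 counts and its RIG-I levels were low, so its pattern depends on the pseudocount of 0.5. Within the family the nearest pairs were Slfn3 and Slfn4 at 0.271 and Slfn8 and Slfn9 at 0.718.

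Other genes of the pathway moved in the same libraries. Of 14 genes of the interferon signal chain, 11 were called higher and 1 lower in CT26, 7 of 13 tested were called higher in E0771 and 9 of 13 in MC38. Ifnb1, the interferon beta gene, averaged 109.5 CPM with the RIG-I agonist against 0.138 CPM with the control agonist in CT26, 13.7 against 0.0389 CPM in E0771 and 3.52 against 0.0768 CPM in MC38. The controls rest on 16, 1 and 2 counts. Irf7, the factor that amplifies interferon transcription, rose by 2.51 on the log2 scale in CT26, 5.43 in E0771 and 2.58 in MC38. Stat2 rose by 2.22 in CT26, 3.14 in E0771 and 1.12 in MC38. Irf9 rose by 0.83 in CT26 and 0.36 in MC38 and was uncalled in E0771, at 1.15 (adjusted p = 0.133). The receptor and kinase genes hardly moved: Ifnar1 was called lower in CT26 at -0.19, Ifnar2 higher at 0.24, and Jak1 and Tyk2 were uncalled in every line. Of the tRNA cleavage and protection list, 2 of 8 genes were called higher in CT26, 0 of 7 in E0771 and 2 of 8 in MC38, near the shares of all genes called higher (19.8%, 1.53% and 18.9%). Among them were Alkbh1, which encodes a demethylase of transfer RNA, at 0.65 in CT26 and Nsun2, which encodes a methyltransferase of transfer RNA, at 0.21 in MC38.

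The other Schlafen genes were set beside the members. Slfn10-ps averaged 25.3 CPM with the RIG-I agonist against 5.55 CPM with the control agonist in E0771, 2.37 against 1.10 CPM in CT26 and 1.03 against 0.616 CPM in MC38. It was called in CT26 alone, at 1.10 (SE 0.19, adjusted p = 0.000419), with 2.19 (adjusted p = 0.0934) in E0771 and 0.73 (adjusted p = 0.208) in MC38. Slfn14, the erythroid and platelet member just beyond the cluster, had 2 counts in 1 CT26 RIG-I library and 0 in all other libraries. Slfnl1, a Schlafen-like gene on chromosome 4, had 2 counts over the CT26 RIG-I libraries, 1 count over the MC38 control libraries and 0 elsewhere.

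Neighbouring genes changed less than the members in the median. Of 40 other genes within 500000 bases of the cluster, 17 passed the filter in CT26, 16 in E0771 and 14 in MC38, with medians of 0.13, 0.38 and 0.28 on the log2 scale against 2.03, 2.41 and 1.41 for the members. Called higher were 8 of 17 in CT26, beside 19.8% of all genes, 1 of 16 in E0771, beside 1.53%, and 7 of 14 in MC38, beside 18.9%, and Ccl9 alone was called lower, in CT26. On the Slfn5 side, Rad51d lay between -0.12 and 0.00 and was uncalled, and Lig3 lay between -0.01 and 0.18, called in MC38. Nle1 was called at 0.22 in CT26 and 0.27 in MC38, and Zfp830 at 0.32 in CT26 and 0.34 in MC38. Unc45b, next to Slfn5, was at 4.27 in E0771 from 25 counts with the RIG-I agonist against 1 with the control agonist, uncalled (adjusted p = 0.188). On the far side, the chemokine genes Ccl5 and Ccl4 rose more than most members in CT26, by 6.44 and 8.81, with 5.58 and an uncalled 4.13 (adjusted p = 0.0665) in E0771 and 1.47 and 2.96 in MC38. The pseudogene Gm11427, which shares 10.8% of the words of Slfn3 and 8.72% of those of Slfn4, was nearly absent in CT26, at 0.389 CPM with the RIG-I agonist against 0.0849 CPM with the control agonist. It held 92.5 against 71.1 CPM in E0771 and 131 against 108 CPM in MC38. Its part in the Slfn3 and Slfn4 levels was not tested.

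**Figure D5:**
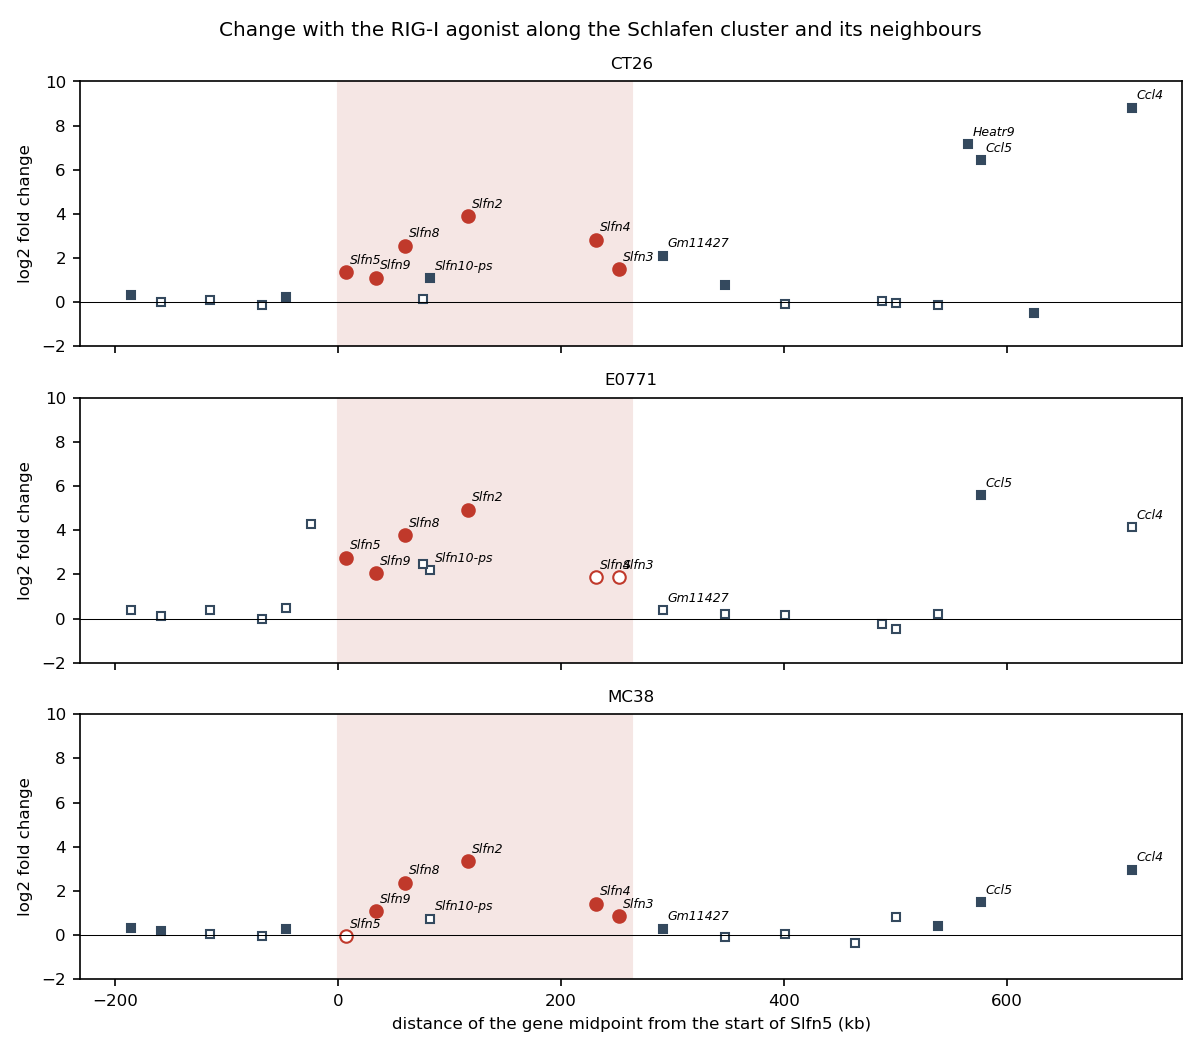
Log2 fold change with the RIG-I agonist against distance of the gene midpoint from the start of Slfn5 (kb) in each line, for tested Schlafen members other than Slfn1 (circles) and neighbouring genes (squares), filled where called. The shaded band is the cluster, and outside it the highest squares are Ccl4, Ccl5 and Heatr9 in CT26.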

How the data were processed

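Per the submitters' processing notes, Salmon and DESeq2 were used with build GRCm38; the versions, the order of steps and the strand setting are not given in the sources used here. The authors deposited 1 table per line of estimated counts per gene (expected counts, not normalised), with 34866 genes each; 14 columns were all tied to samples by name. Identifiers were matched without version to GENCODE M21 (34652 matched, and all 7 members with the same version). Counts were rounded to whole numbers. Genes were kept by filterByExpr (minimum count 10), scaled by TMM and tested with edgeR 4.0.16 (R 4.3.3) by the robust quasi-likelihood F test, with Benjamini-Hochberg adjustment over all genes of a fit. The numbers tested were 13893 in CT26, 11728 in E0771, 12387 in MC38 and 14657 in the fit of all 14 libraries, which tested differences between lines. SEs were derived from the F statistic. CPM used the scaled library sizes. Alternatives were RLE size factors, DESeq2 1.42.0, no filter, a single fit, a replicate block, summed paralogues and leaving out each library. The script was tested on simulated data. The 95% intervals cover variation between libraries as the fits estimate it, and the floors (3 counts) cover counting error of the controls only.

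Members, gene lists and tests were chosen with earlier results of these data known. The text names all members, list genes that a sentence turns on, neighbours within 500000 bases, and for each member the 2 genes nearest in pattern (pseudocount 0.5). Residuals of same-numbered libraries correlated at 0.092, 0.084 and 0.262 in CT26, at 0.639 in E0771 and at -0.018 in MC38. With 2 libraries for each agonist, the E0771 value is a single one, its crossed pairs being fixed at -0.639. It cannot decide whether the numbers pair the E0771 samples. No label states that same-numbered libraries belong together, although the MC38 column names carry the same non-consecutive numbers under both agonists. The main fits used no pairing. Values of some listed genes are not reported here.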

Additional observations from a re-analysis of the deposited data

Results flagged for a closer look

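The change with the RIG-I agonist differed between lines for Slfn5, Slfn8 and Slfn9, by the test of the difference itself in the edgeR fit of all 14 libraries. For Slfn5 the difference of log2 fold changes was -1.42 for CT26 minus E0771 (adjusted p = 0.00190), 1.38 for CT26 minus MC38 (adjusted p = 0.00715) and 2.81 for E0771 minus MC38 (adjusted p = 6.39e-05). For Slfn8 it was -1.27 for CT26 minus E0771 (adjusted p = 0.0163) and 1.43 for E0771 minus MC38 (adjusted p = 0.0219). For Slfn9 it was -0.99 for CT26 minus E0771 (adjusted p = 0.000987) and 0.97 for E0771 minus MC38 (adjusted p = 0.00221). The log2 fold change was largest in E0771 for all 3 genes, but the level with the RIG-I agonist was highest there for Slfn5 only. With all 14 libraries scaled together, Slfn9 with the RIG-I agonist averaged 344 CPM in E0771, 352 in MC38 and 803 in CT26. Its controls averaged 82.9, 167 and 385 CPM. Slfn8 with the RIG-I agonist averaged 86.1, 81.0 and 203 CPM, and its controls 6.24, 15.8 and 35.4 CPM. Not all calls of these differences held in the alternative fits. The Slfn8 difference lost its call in 5 of 13 fits for E0771 minus MC38 and in 1 of 15 for CT26 minus E0771. The Slfn5 difference for CT26 minus MC38 lost its call in 2 of 15. Those of Slfn9, and those of Slfn5 that involve E0771, kept it throughout.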

How the results depend on the processing

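Slfn2, Slfn8 and Slfn9 kept direction and call in every line under all alternatives, as did Slfn5 in E0771 and the other members called in CT26 and MC38, except that DESeq2 gave no adjusted p for Slfn1 in MC38. For each whole table the number of called genes moved more. In CT26 the single fit of all libraries called 1520 genes higher. In E0771 (180 higher and 3 lower) DESeq2 called 366 higher and 43 lower, no filter gave 22 lower, the single fit 949 higher, 639 lower and 7 members higher, and leaving out a library 2 to 8 lower. In MC38 DESeq2 called 1156 higher and 804 lower, and the single fit 624 higher and 374 lower; its shared spread is wider than that of MC38 alone. For differences between lines, DESeq2 called 2 members and 1016 genes between CT26 and MC38, and 493 genes between E0771 and MC38. Leaving out 1 library gave 349 to 863 genes between CT26 and E0771, 0 to 2 members and 167 to 506 genes between CT26 and MC38, and 166 to 477 genes between E0771 and MC38. Where 1 library was left in a group, it was assumed to vary like the others.

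With replicate number as a block, E0771 had 1243 genes higher and 1215 lower, and Slfn3 (adjusted p = 1.26e-05) and Slfn4 (adjusted p = 0.000328) were called there. The block also gave 1537 genes between CT26 and E0771, 3 members and 1816 genes between CT26 and MC38, and 880 genes between E0771 and MC38. In CT26 only replicate 3 correlated best with its own number.

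Some uncalled estimates changed sign with 1 library left out, and not all of them were near 0. In the main fit the Slfn3 difference between CT26 and E0771 was -0.41 and the Slfn2 control difference between these lines -0.39. The Slfn2 difference between CT26 and MC38 was 0.52. Slfn5 in MC38 ran between -0.30 and 0.25. The Slfn3 difference between CT26 and E0771 ran between -0.72 and 0.0066, the Slfn2 control difference between these lines between -0.79 and 0.21, and the Slfn2 difference between CT26 and MC38 between -0.76 and 1.09. The Slfn9 difference between CT26 and MC38 ran between -0.073 and 0.024, and was 0.017 with RLE size factors and 0.0068 in DESeq2. Causes were not tested. Depth limits Slfn1 in all lines, Slfn2 in MC38 and Slfn4.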
